A study of Mus musculus with 10 samples.

Results

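The genes described here belong to the BCL2 family of survival and death regulators: Bcl2, Bcl2l1, Mcl1, Bax, Bak1, Bcl2l11, Bid, Bbc3, Pmaip1 and Bmf. They were chosen by symbol, and all 10 were found among the 24015 genes of a table of read counts. RNA was sequenced from MAF9 cells, bone marrow cells of C57BL/6 mice that carry the transduced MLL-AF9 fusion gene and grew with 10 ng/ml IL-3 and 15% FBS. The cells were treated for 4 days with DMSO alone or with 1 of 4 inhibitors, each at its IC50 dose, whose concentration the labels do not give. MM-401 (labelled MM401) blocks the contact of the histone methyltransferase MLL1 with WDR5. EPZ5676 (labelled EPZ) inhibits the histone methyltransferase DOT1L. MI-2-2 (labelled MI, and MI-2 in the treatment note) blocks the binding of MENIN to MLL proteins. iBET is a bromodomain inhibitor. Each of the 5 groups holds 2 libraries, described as biological duplicates, and the 10 libraries hold 20394762 to 29473127 counted reads.

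BCL2 family proteins decide whether the outer membrane of the mitochondrion is breached, the step that releases cytochrome c and starts the caspase cascade. Guardians such as BCL2, BCL-XL and MCL1 hold the pore-forming effectors BAX and BAK in check, and BH3-only proteins either occupy the guardians or activate the effectors. Myeloid progenitors and MLL-rearranged leukemia cells are known to rely on MCL1, a protein with a short half-life.

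The DMSO libraries differed from each other before any inhibitor was compared. In DMSO replicate 2, genes of the Y chromosome (Uty, Kdm5d, Eif2s3y, Ddx3y) had 3630 reads, where each of the other 9 libraries held at most 2. Its level of Xist, the RNA that silences an X chromosome in female cells, was 4.65 CPM, against 1026 to 2818 CPM in the other 9 libraries. By these genes, DMSO replicate 2 read as male cells and the other 9 libraries as female cells. The DMSO group therefore held cells of both sexes, and the part of this in the differences from DMSO was not tested. Of the tested genes, 19.3% differed more than 2-fold between the DMSO libraries, against 3.42% to 6.07% between the libraries of each inhibitor. Among the BCL2 family genes, Bbc3 differed 2.23-fold and Bmf 2.20-fold between the DMSO libraries. Differences from DMSO are therefore also given with DMSO replicate 1 or DMSO replicate 2 left out.

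CPM is used here for read counts scaled to library size by TMM (trimmed mean of M-values), and libraries are given in the order replicate 1, replicate 2. A gene is called when its Benjamini-Hochberg adjusted p over all 12971 tested genes of a comparison is below 0.05 in the edgeR quasi-likelihood test, with 2 libraries in each group. The filter on low counts kept all 10 BCL2 family genes, and the lowest count of any of them in any library was 109 reads. In bulk RNA of this kind, fewer cells of a type and less RNA per cell cannot be told apart. The 4 comparisons with DMSO share the same DMSO libraries, so their values are given side by side and not as separate support for each other.

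Against DMSO, EPZ5676 called 6 of the 10 BCL2 family genes, with 38.1% of all tested genes called. Bcl2l1, Mcl1, Bcl2l11 and Bmf rose and Bid and Pmaip1 fell. MI-2-2 called 6 of the 10, with 41.4% of all tested genes called: Bcl2l1, Mcl1, Bcl2l11 and Bmf rose and Bid and Pmaip1 fell. iBET called 2 of the 10, Bcl2l11 and Bid, both of which rose, with 13.9% of all tested genes called. MM-401 called 0 of the 10 in edgeR, with 0% of all tested genes called. At an unadjusted p below 0.05, MM-401 had 2 family genes (Bax and Pmaip1) and 1450 genes in all, and the DESeq2 test called 0 family genes and 297 genes. The median log2 fold change of the 10 family genes was 0.22 with EPZ5676, 0.39 with MI-2-2, 0.22 with iBET and 0.16 with MM-401, against -0.06, -0.05, -0.04 and -0.01 over all tested genes. Leaving out DMSO replicate 1, the number of family genes called was 7 with EPZ5676, 7 with MI-2-2, 4 with iBET and 2 with MM-401, where the share of all tested genes called also rose, to 51.0%, 53.9%, 27.9% and 10.2%. Leaving out DMSO replicate 2, it was 5, 6, 2 and 0 in the same order, with 35.5%, 37.6%, 21.6% and 0% of all tested genes called.

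With library totals in place of TMM, the median log2 fold change of all tested genes moved from -0.06 to -0.23 with EPZ5676 and from -0.05 to -0.20 with MI-2-2. The family genes called against DMSO kept their direction and their call on that scale and with DESeq2 size factors. In fits of only the 4 libraries compared, EPZ5676 called Mcl1 and Bcl2l11 with 9.34% of all tested genes called, MI-2-2 called Mcl1 and Pmaip1 with 9.12%, and iBET called 0 family genes with 0%, with 2541 genes of all kinds at an unadjusted p below 0.05. Over all tested genes, the log2 differences between replicates 1 and 2 went together across groups, with r from 0.278 to 0.666 in the 10 pairs of groups. Among the family genes, Pmaip1 and Bmf read higher in replicate 1 and Bax higher in replicate 2 in all 5 groups. The labels do not say what the replicate numbers mark. With replicate number as a block, 6 family genes were called with EPZ5676, 6 with MI-2-2, 3 with iBET (Bmf added) and 0 with MM-401, with 47.6%, 50.6%, 23.8% and 0% of all tested genes called.

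**Figure D1:**
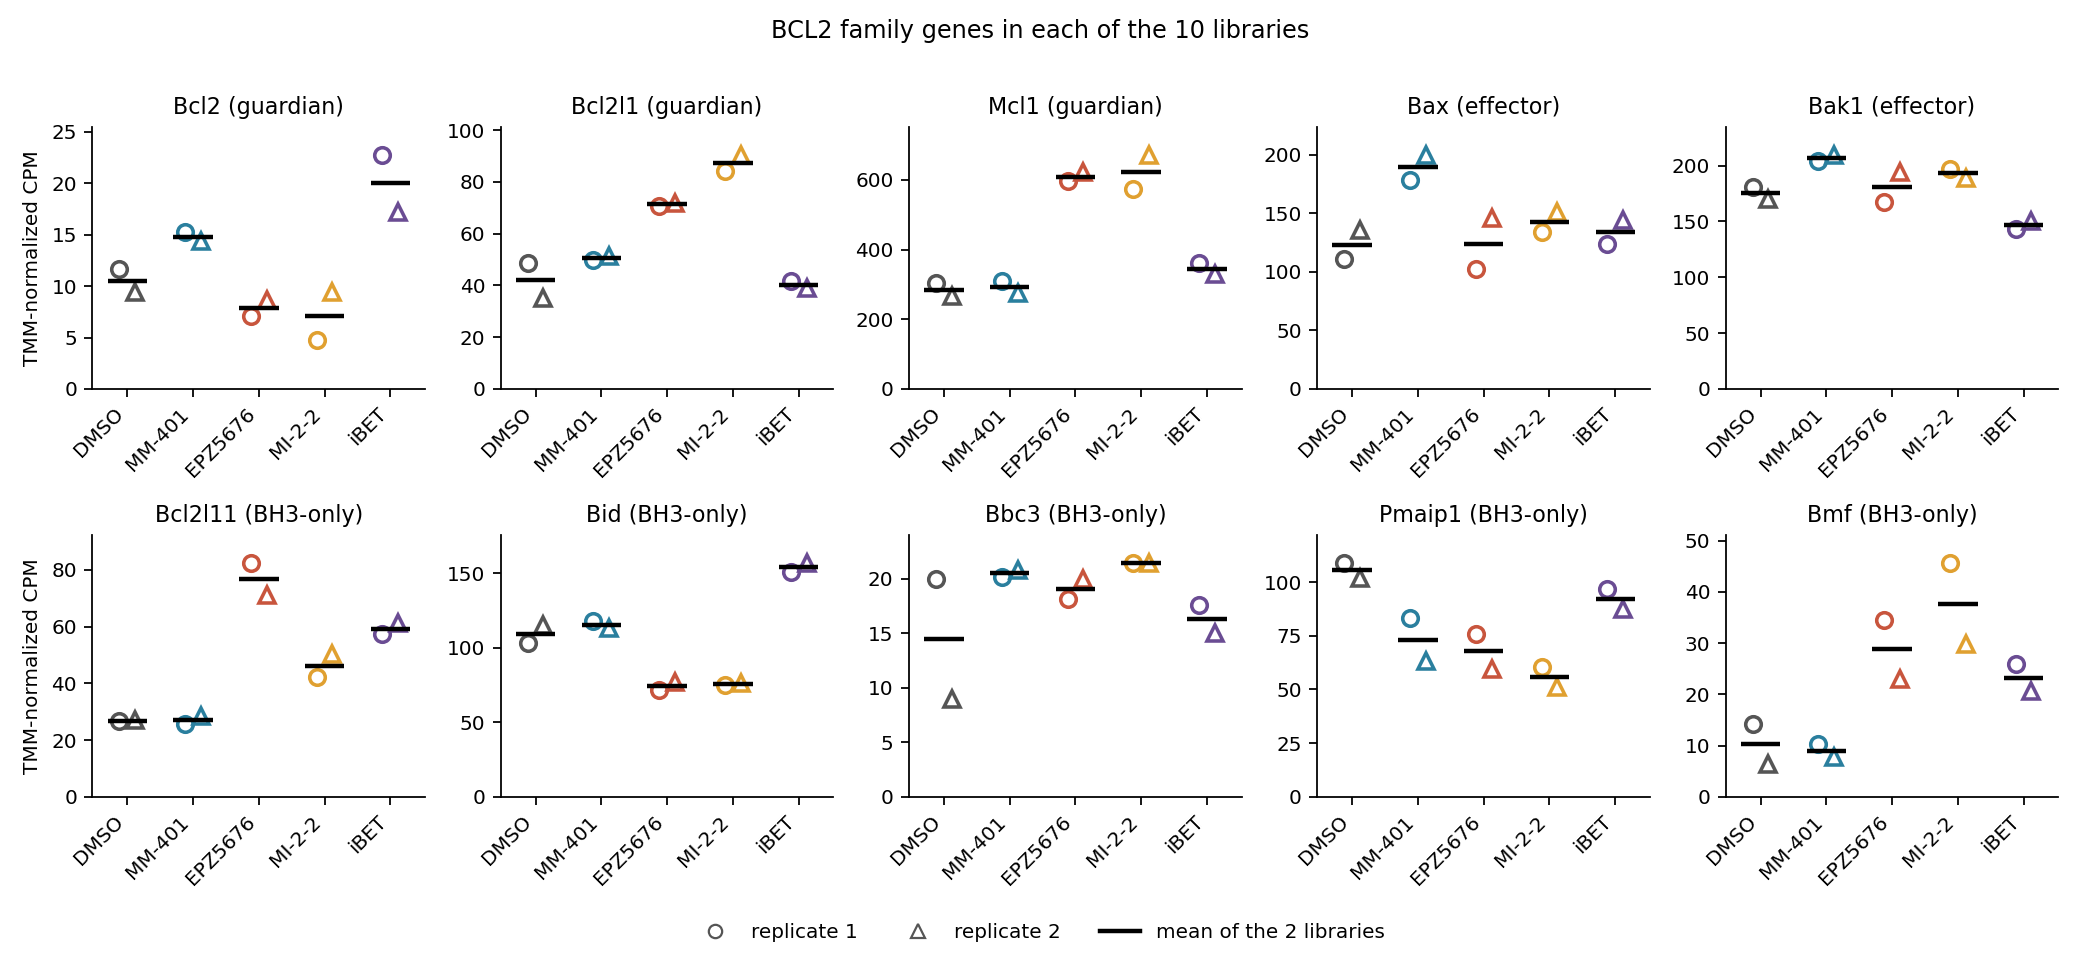
Level of each BCL2 family gene in each of the 10 libraries, in TMM-normalized CPM on a linear axis from 0, with circles for replicate 1, triangles for replicate 2 and a bar at the mean of the 2. Mcl1 stands at 574 to 672 CPM in the EPZ5676 and MI-2-2 libraries and at 266 to 362 CPM in the other 6.

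The promoters of Mcl1, Bcl2l11 and Bmf are shown because these 3 genes, 1 guardian and 2 BH3-only genes, rose with both EPZ5676 and MI-2-2. Bcl2l1 rose with both as well, and its windows, which hold none of the motifs searched, are not printed. The sequences are from RefSeq on build GRCm38.p6 and run 5′ to 3′ from 250 bases before to 50 bases after a start of the gene. RefSeq windows of 9 of the 10 family genes were searched, with 16 windows in all, and Pmaip1 was left out and is not reported here. The Mcl1 window lies on the + strand at chr3:95658471-95658770. For Bcl2l11, the upstream of 2 windows is shown, on the + strand at chr2:128125788-128126087. For Bmf, the most upstream of 3 windows is shown, on the - strand at chr2:118549637-118549936. Capitals mark each match, on either strand, to the GC box GGGCGG or to the FOXO motif GTAAACA.
Mcl1: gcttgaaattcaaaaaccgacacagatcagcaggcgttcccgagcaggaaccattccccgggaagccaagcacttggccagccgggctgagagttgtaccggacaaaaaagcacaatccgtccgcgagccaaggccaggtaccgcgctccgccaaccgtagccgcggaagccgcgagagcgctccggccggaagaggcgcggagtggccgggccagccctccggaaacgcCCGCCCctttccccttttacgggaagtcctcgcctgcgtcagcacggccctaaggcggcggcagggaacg
Bcl2l11: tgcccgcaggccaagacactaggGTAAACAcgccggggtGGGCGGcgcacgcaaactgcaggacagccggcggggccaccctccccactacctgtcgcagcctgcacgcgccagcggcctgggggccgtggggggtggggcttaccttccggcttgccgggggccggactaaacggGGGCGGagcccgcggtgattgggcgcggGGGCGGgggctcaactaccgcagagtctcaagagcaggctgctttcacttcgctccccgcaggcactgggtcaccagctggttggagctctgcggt
Bmf: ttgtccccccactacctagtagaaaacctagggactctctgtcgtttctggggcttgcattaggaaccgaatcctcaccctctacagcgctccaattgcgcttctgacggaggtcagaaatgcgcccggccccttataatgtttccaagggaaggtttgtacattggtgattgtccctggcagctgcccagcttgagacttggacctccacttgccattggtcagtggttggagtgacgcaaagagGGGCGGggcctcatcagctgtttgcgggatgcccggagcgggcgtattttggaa
The Mcl1 window has a GC content of 65.7% and 1 GC box. The Bcl2l11 window has a GC content of 71.0%, 3 GC boxes and 1 FOXO match. The Bmf window has a GC content of 55.3% and 1 GC box. The Bmf windows not shown hold none of the motifs searched, and the Bcl2l11 window not shown holds 3 GC boxes and no FOXO match.

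Of the 16 windows of family genes, 10 hold GGGCGG on either strand, and 35.7% of all 32851 RefSeq windows of the same length hold it. The FOXO motif GTAAACA occurs in 2 of the 16 windows (of Bcl2l11 and Bbc3) and in 3.65% of all windows. The E-box CACGTG occurs in 2 of the 16 (of Bax and Bbc3) and in 7.15% of all windows. The PU.1 core GAGGAAG occurs in 2 of the 16 (of Bcl2 and Bak1) and in 13.6% of all windows. The AP-1 motif TGAGTCA and the STAT motif TTCNNNGAA occur in 0 of the 16, and in 5.2% and 8.3% of all windows. The 3 windows of Bcl2l1 hold none of these 6 motifs. These matches describe letters only, and no binding was measured.

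Among the guardians, Mcl1, whose protein binds BIM, PUMA, NOXA and BAK, had the highest level per length. Mcl1 read 304 and 266 CPM with DMSO, 311 and 277 with MM-401, 596 and 623 with EPZ5676, 574 and 672 with MI-2-2 and 362 and 329 with iBET. The 4 EPZ5676 and MI-2-2 libraries lay above the other 6, while the MM-401 and DMSO libraries overlapped. With EPZ5676, Mcl1 rose 2.14-fold against DMSO (log2 fold change 1.10, SE 0.14, edgeR adjusted p = 0.00132). With MI-2-2 it rose 2.19-fold (log2 fold change 1.13, SE 0.14, edgeR adjusted p = 0.00111). Mcl1 stayed called in both comparisons whichever of the 10 libraries was left out, at 1.03 with EPZ5676 and 1.07 with MI-2-2 without DMSO replicate 2. With iBET it was not called, at a log2 fold change of 0.28 (95% interval -0.04 to 0.60). With MM-401 it was 0.04 (95% interval -0.28 to 0.36), and -0.07 without DMSO replicate 2. Its order was MI-2-2, EPZ5676, iBET, MM-401 and DMSO from high to low, with MI-2-2 and EPZ5676 overlapping, MM-401 and DMSO overlapping, and iBET not called against MM-401.

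Bcl2l1 encodes BCL-XL, a guardian that binds most BH3-only proteins and holds BAX and BAK in check. Bcl2l1 read 48.8 and 35.2 CPM with DMSO, 49.9 and 51.6 with MM-401, 70.9 and 71.7 with EPZ5676, 84.2 and 90.4 with MI-2-2 and 41.6 and 39.1 with iBET. Its levels with EPZ5676 and MI-2-2 were above those of every other library, and the iBET libraries lay between the DMSO libraries. With EPZ5676 it rose 1.70-fold against DMSO (log2 fold change 0.76, SE 0.15, edgeR adjusted p = 0.00721). With MI-2-2 it rose 2.08-fold (log2 fold change 1.05, SE 0.16, edgeR adjusted p = 0.00197). Both calls held in each of the 10 fits that left out a library, and without DMSO replicate 2 the log2 fold changes were 0.57 and 0.87. With MM-401 it was not called (log2 fold change 0.27, 95% interval -0.08 to 0.63), but it was called at 0.53 without DMSO replicate 1 and stood at 0.04 without DMSO replicate 2. With iBET its log2 fold change was -0.06 (95% interval -0.42 to 0.30), at 0.20 without DMSO replicate 1 and -0.28 without DMSO replicate 2, and not called in any of these fits. Its order was MI-2-2, EPZ5676, MM-401, DMSO and iBET, where MI-2-2 was not called against EPZ5676, nor MM-401 against DMSO, and DMSO and iBET overlapped.

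Bcl2 encodes the guardian after which the family is named, the target of BH3-mimetic drugs such as venetoclax. Bcl2 read 11.6 and 9.44 CPM with DMSO, 15.3 and 14.4 with MM-401, 7.13 and 8.66 with EPZ5676, 4.73 and 9.39 with MI-2-2 and 22.8 and 17.3 with iBET. Both iBET libraries stood above all others and both MM-401 libraries came next, but none of the 4 comparisons of Bcl2 with DMSO was called in edgeR. With iBET its log2 fold change was 0.92 (SE 0.32, edgeR adjusted p = 0.092, 95% interval 0.18 to 1.66), and the DESeq2 test called it. It was not called there without DMSO replicate 1 (1.09) or DMSO replicate 2 (0.78). With MM-401 it was 0.49 (95% interval -0.25 to 1.23). With EPZ5676 the log2 fold change was -0.42 (95% interval -1.16 to 0.33). With MI-2-2 it was -0.58 (95% interval -1.32 to 0.17), and Bcl2 was called there at -1.15 without MI-2-2 replicate 2 and stood at -0.17 without MI-2-2 replicate 1. Its order was iBET, MM-401, DMSO, EPZ5676 and MI-2-2; no pair of neighbours was called, and EPZ5676 and MI-2-2 overlapped.

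The effectors Bax and Bak1 encode the proteins that form the pore in the outer membrane. Bax read 111 and 136 CPM with DMSO, 179 and 199.9 with MM-401, 102 and 146 with EPZ5676, 134 and 151 with MI-2-2 and 124 and 144 with iBET. The MM-401 libraries were the highest of the 10, and the EPZ5676, MI-2-2 and iBET libraries overlapped each other and DMSO. Bax with MM-401 was not called against DMSO (log2 fold change 0.62, SE 0.19, unadjusted p of edgeR 0.012, adjusted p = 0.333, higher in both MM-401 libraries). Its log2 fold change was 0.01 with EPZ5676 (95% interval -0.43 to 0.45), which turned to -0.13 without DMSO replicate 1, to -0.27 without EPZ5676 replicate 2 and to -0.16 with library totals. With MI-2-2 it was 0.21 (95% interval -0.23 to 0.65), at 0.08 without DMSO replicate 1 and 0.40 without DMSO replicate 2. With iBET it was 0.12 (95% interval -0.32 to 0.56), and -0.01 without DMSO replicate 1. Its order was MM-401, MI-2-2, iBET, EPZ5676 and DMSO, and no pair of neighbours was called.

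Bak1 encodes BAK, the effector that resides in the outer membrane of the mitochondrion. Bak1 read 181 and 170.2 CPM with DMSO, 204 and 209 with MM-401, 168 and 194 with EPZ5676, 197 and 189 with MI-2-2 and 143 and 150.2 with iBET. The iBET libraries were the lowest and the MM-401 libraries the highest of the 10, and the whole range was 143 to 209 CPM. Bak1 was not called against DMSO with any inhibitor. Its log2 fold change was 0.04 with EPZ5676 (95% interval -0.21 to 0.30), -0.06 without EPZ5676 replicate 2 and -0.13 with library totals. With MI-2-2 it was 0.14 (95% interval -0.12 to 0.39), and -0.01 with library totals. With iBET it was -0.26 (SE 0.11, edgeR adjusted p = 0.152, lower in both iBET libraries), and with MM-401 0.24 (95% interval -0.02 to 0.49). The order was MM-401, MI-2-2, EPZ5676, DMSO and iBET; MI-2-2, EPZ5676 and DMSO overlapped in turn, and no pair of neighbours was called.

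Among the BH3-only genes, Bcl2l11 was called against DMSO with 3 of the 4 inhibitors. It encodes BIM, which binds every guardian and can activate BAX and BAK. Bcl2l11 read 26.6 and 27.1 CPM with DMSO, 25.5 and 28.5 with MM-401, 82.4 and 71.0 with EPZ5676, 42.1 and 50.2 with MI-2-2 and 57.3 and 61.2 with iBET. The EPZ5676, iBET and MI-2-2 libraries formed separate steps above DMSO, and the MM-401 libraries spanned the DMSO range. With EPZ5676, Bcl2l11 rose 2.85-fold (log2 fold change 1.51, SE 0.14, edgeR adjusted p = 0.000579). With iBET it rose 2.21-fold (log2 fold change 1.14, SE 0.14, edgeR adjusted p = 0.00436). With MI-2-2 it rose 1.72-fold (log2 fold change 0.78, SE 0.14, edgeR adjusted p = 0.00392). All 3 calls held in each of the 10 fits that left out a library, at 1.55, 1.15 and 0.83 without DMSO replicate 2. With MM-401 its log2 fold change was 0.01 (95% interval -0.31 to 0.33), and the sign turned in several fits, at -0.07 to 0.09 when a library was left out. Its order was EPZ5676, iBET, MI-2-2, MM-401 and DMSO, where EPZ5676 was not called against iBET, nor iBET against MI-2-2, and MM-401 and DMSO overlapped. Its promoter letters are those printed above, with 3 GC boxes and 1 FOXO match.

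Bmf encodes a BH3-only protein known to be held at the cytoskeleton by a dynein light chain. Bmf read 14.1 and 6.42 CPM with DMSO, 10.3 and 7.69 with MM-401, 34.5 and 23.0 with EPZ5676, 45.6 and 29.8 with MI-2-2 and 25.9 and 20.6 with iBET. All 6 libraries of EPZ5676, MI-2-2 and iBET lay above all 4 of DMSO and MM-401. With EPZ5676 it rose 2.79-fold (log2 fold change 1.48, SE 0.40, edgeR adjusted p = 0.0228), at 2.17 without DMSO replicate 1. That call was lost without DMSO replicate 2, at 1.05, and without EPZ5676 replicate 1, at 1.16. With MI-2-2 it rose 3.65-fold (log2 fold change 1.87, SE 0.41, edgeR adjusted p = 0.00869), at 2.56 without DMSO replicate 1 and 1.45 without DMSO replicate 2, and the call was lost without MI-2-2 replicate 1, at 1.53. With iBET it was not called (log2 fold change 1.17, SE 0.40, edgeR adjusted p = 0.0882), though it was called by the DESeq2 test and at 1.86 without DMSO replicate 1, and stood at 0.72 without DMSO replicate 2. With MM-401 its log2 fold change was -0.20 (95% interval -1.12 to 0.73), which turned to 0.49 without DMSO replicate 1 and was -0.67 without DMSO replicate 2. The order was MI-2-2, EPZ5676, iBET, DMSO and MM-401, the last 2 trading places without DMSO replicate 1; neighbours overlapped except iBET and DMSO, and no pair of neighbours was called.

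Bid encodes the BH3-only protein that caspase-8 cleaves, which ties death receptors to the mitochondrion. Bid read 103 and 115 CPM with DMSO, 118 and 114 with MM-401, 71.5 and 77.1 with EPZ5676, 75.4 and 76.5 with MI-2-2 and 151 and 157 with iBET. The iBET libraries lay above and the EPZ5676 and MI-2-2 libraries below all others. With EPZ5676 it fell against DMSO (log2 fold change -0.56, SE 0.10, edgeR adjusted p = 0.00524), and without DMSO replicate 2 the value was -0.45. With MI-2-2 it fell as well (log2 fold change -0.53, SE 0.10, edgeR adjusted p = 0.00595), and without DMSO replicate 2 the value was -0.41. Both of these calls held in each of the 10 fits that left out a library. With iBET it rose 1.41-fold (log2 fold change 0.49, SE 0.10, edgeR adjusted p = 0.021), at 0.42 without DMSO replicate 1 and 0.58 without DMSO replicate 2. The iBET call was lost without MM-401 replicate 1 (0.50) or replicate 2 (0.50), which enter only through the shared spread and scaling, and without iBET replicate 1 (0.53) or replicate 2 (0.47). With MM-401 its log2 fold change was 0.08 (95% interval -0.16 to 0.32). Its order was iBET, MM-401, DMSO, MI-2-2 and EPZ5676, with MM-401 and DMSO overlapping and MI-2-2 and EPZ5676 overlapping.

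Pmaip1 encodes NOXA, a BH3-only protein that binds MCL1 and speeds its breakdown. Pmaip1 read 109 and 102 CPM with DMSO, 83.1 and 63.2 with MM-401, 76.0 and 59.6 with EPZ5676, 60.7 and 51.0 with MI-2-2 and 96.5 and 87.2 with iBET. The DMSO libraries were the highest of the 10 and the iBET libraries came next. With EPZ5676 it fell (log2 fold change -0.64, SE 0.18, edgeR adjusted p = 0.0247), a call lost without EPZ5676 replicate 2, at -0.47. With MI-2-2 it fell (log2 fold change -0.92, SE 0.18, edgeR adjusted p = 0.00565), a call lost without MI-2-2 replicate 2, at -0.79. Both calls held without DMSO replicate 1 (-0.59 and -0.86) and without DMSO replicate 2 (-0.66 and -0.93). With MM-401 it was not called (log2 fold change -0.53, SE 0.18, unadjusted p of edgeR 0.0179, adjusted p = 0.349), though both libraries were lower than both DMSO libraries. With iBET its log2 fold change was -0.20 (95% interval -0.61 to 0.21). The order was DMSO, iBET, MM-401, EPZ5676 and MI-2-2, with the last 3 overlapping in turn and no pair of neighbours called.

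Bbc3 encodes PUMA, the BH3-only protein best known as a p53 target. Bbc3 read 19.98 and 8.97 CPM with DMSO, 20.2 and 20.8 with MM-401, 18.1 and 19.96 with EPZ5676, 21.4 and 21.4 with MI-2-2 and 17.6 and 15.0 with iBET. Only DMSO replicate 2 stood apart, below each of the other 9 libraries. No comparison with DMSO was called, with log2 fold changes of 0.50 with MM-401 (95% interval -0.24 to 1.24), 0.39 with EPZ5676 (-0.35 to 1.14), 0.56 with MI-2-2 (-0.18 to 1.31) and 0.17 with iBET (-0.57 to 0.91). Without DMSO replicate 1 all 4 were called, at 1.20, 1.09, 1.26 and 0.87 in that order. Without DMSO replicate 2 none was called, at 0.02, -0.05, 0.14 and -0.29. The order was MI-2-2, MM-401, EPZ5676, iBET and DMSO, with no pair of neighbours called.

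**Figure D2:**
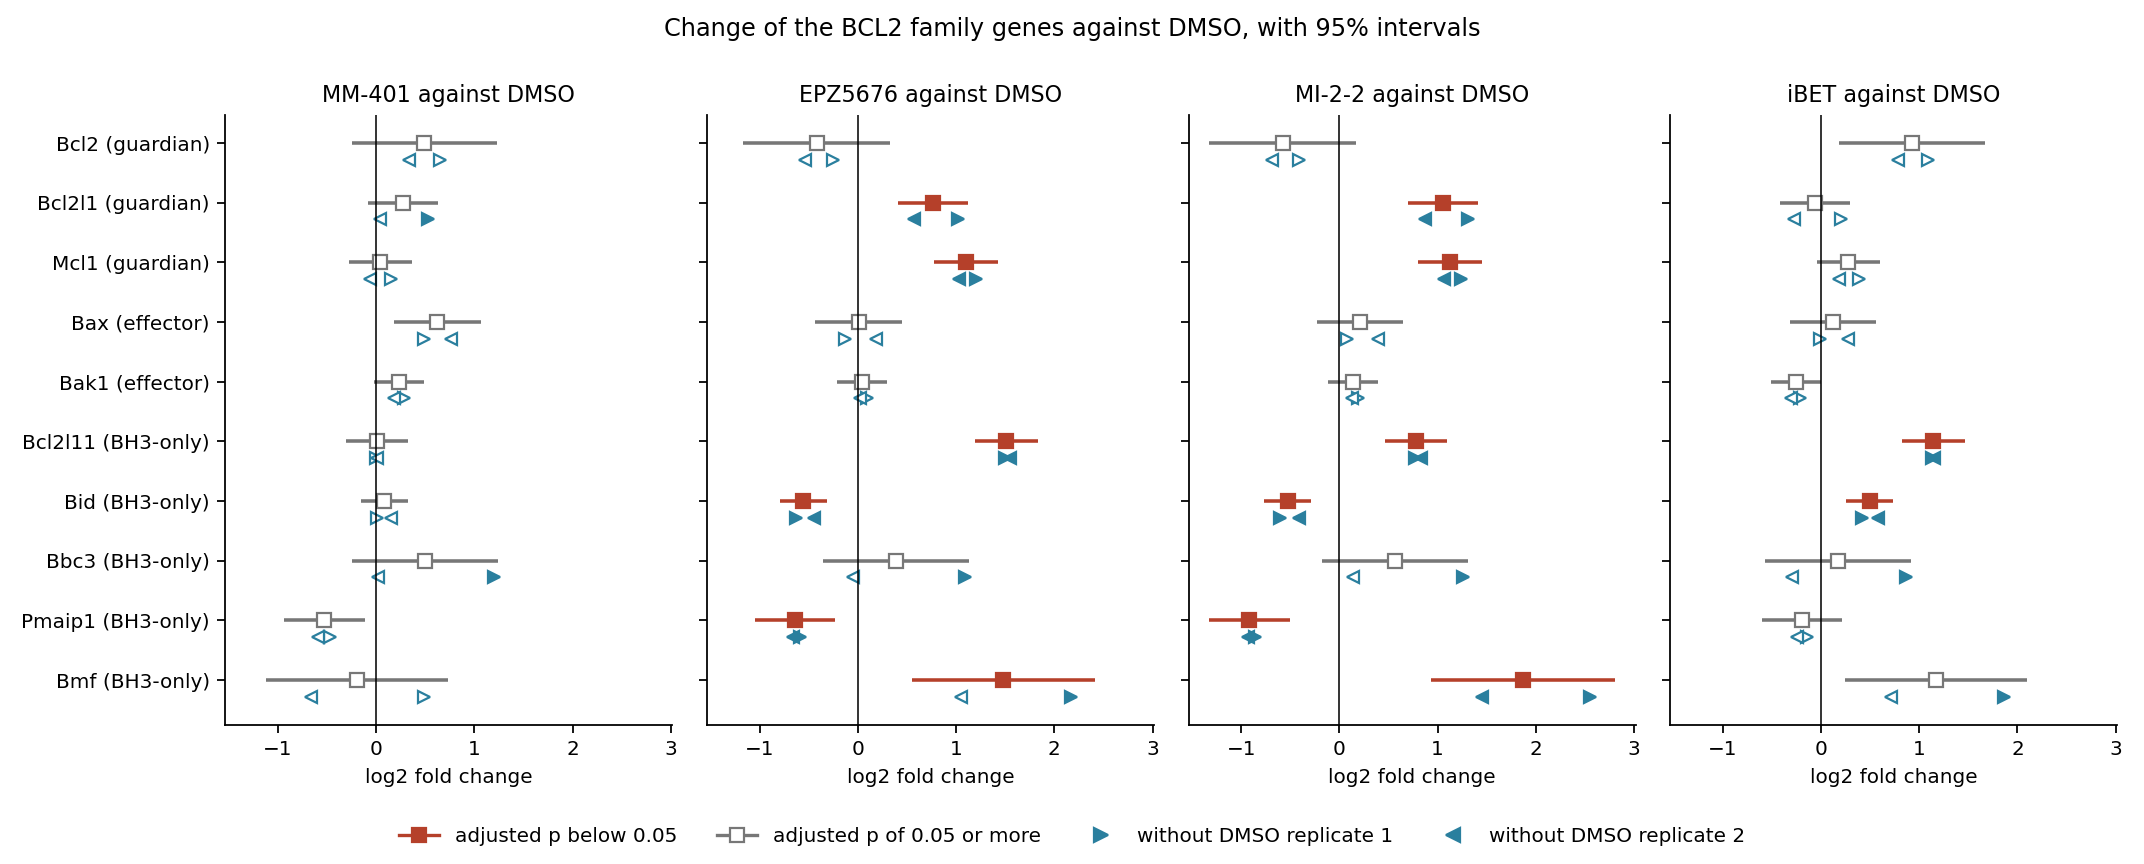
Log2 fold change of each BCL2 family gene against DMSO with each inhibitor (squares, with 95% intervals as lines), filled where the adjusted p is below 0.05, with blue triangles for the fits without DMSO replicate 1 or 2, filled where called. The triangles of Bbc3 lie far apart, from 1.20 to 0.02 with MM-401, while those of Mcl1 with EPZ5676 lie at 1.20 and 1.03.

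Levels of the family genes were compared with each other per length, as RPKM (CPM per kilobase of merged exons) with exon lengths from the mouse GENCODE annotation M21. Averaged over the 10 libraries, Mcl1 had the highest level at 126 RPKM, with a range of 77.7 to 196, and the effectors came next, Bax at 90.5 RPKM and Bak1 at 75.0 RPKM. This rank did not hold in each library, as Bax was above Mcl1 in both MM-401 libraries (114 and 127 against 90.9 and 81.0 RPKM) and in DMSO replicate 2 (86.1 against 77.7 RPKM). Bak1 was also above Mcl1 in MM-401 replicate 2 (87.0 against 81.0 RPKM). It was above Bax in DMSO replicate 1 (75.0 against 70.2 RPKM) and EPZ5676 replicate 1 (69.6 against 64.9 RPKM). Bid at 29.8 RPKM and Pmaip1 at 28.8 RPKM were the most abundant BH3-only genes. Pmaip1 was above Bid in both DMSO libraries (39.8 and 37.3 against 29.0 and 32.5 RPKM). The same order held in both EPZ5676 libraries (27.8 and 21.80 against 20.1 and 21.71 RPKM) and MI-2-2 replicate 1 (22.2 against 21.2 RPKM). Bcl2l1 followed at 12.7 RPKM, then Bbc3 at 8.64, Bcl2l11 at 5.88, Bmf at 4.15 and Bcl2 at 1.32. Single libraries broke this order too. Bcl2l11 was above Bbc3 in EPZ5676 replicate 1 (10.3 against 8.52 RPKM) and iBET replicate 2 (7.62 against 7.06 RPKM). In MI-2-2 replicate 1 Bmf was above Bcl2l11 (8.68 against 5.25 RPKM), and in MI-2-2 replicate 2 Bcl2l1 was above Pmaip1 (19.7 against 18.7 RPKM). Bcl2 was above Bmf in MM-401 replicate 2 (1.57 against 1.46 RPKM). With the longest transcript as the length, Bax at 130 RPKM and Mcl1 at 126 RPKM traded places and the other 8 kept their rank.

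Mcl1 made up 86.3% to 91.7% of the summed RPKM of the 3 guardians in every library. With the longest transcript as the length, its share was 78.6% to 86.2%. The guardian sum was 101 and 86.5 RPKM with DMSO, 103 and 93.8 with MM-401, 191 and 199 with EPZ5676, 187 and 217 with MI-2-2 and 117 and 107 with iBET. The sum of the 5 BH3-only genes was 84.3 and 78.6 RPKM with DMSO, 78.2 and 69.9 with MM-401, 73.3 and 66.1 with EPZ5676, 67.4 and 62.2 with MI-2-2 and 98.3 and 94.7 with iBET. The EPZ5676 and MI-2-2 libraries thus combined the highest guardian sums with BH3-only sums below those of DMSO. BH3-only transcripts per guardian transcript came to 0.836 and 0.910 with DMSO, 0.756 and 0.746 with MM-401, 0.385 and 0.332 with EPZ5676, 0.361 and 0.286 with MI-2-2 and 0.837 and 0.887 with iBET. The 4 EPZ5676 and MI-2-2 libraries were the lowest on this ratio, and they were also the lowest with the longest transcript as the length, at 0.337 to 0.449 against 0.863 to 1.07 elsewhere. Within the BH3-only sum, Bcl2l11 made up 3.93% and 4.30% with DMSO, 4.07% and 5.07% with MM-401, 14.0% and 13.4% with EPZ5676, 7.78% and 10.0% with MI-2-2 and 7.27% and 8.05% with iBET, while Pmaip1 made up 47.3% and 47.4% with DMSO and 29.98% to 38.90% in the 8 inhibitor libraries. Effector transcripts per guardian transcript came to 1.44 and 1.81 with DMSO, 1.92 and 2.28 with MM-401, 0.706 and 0.871 with EPZ5676, 0.892 and 0.803 with MI-2-2 and 1.17 and 1.44 with iBET. These sums and ratios are descriptions of transcripts with no test, and protein was not measured.

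**Figure D3:**
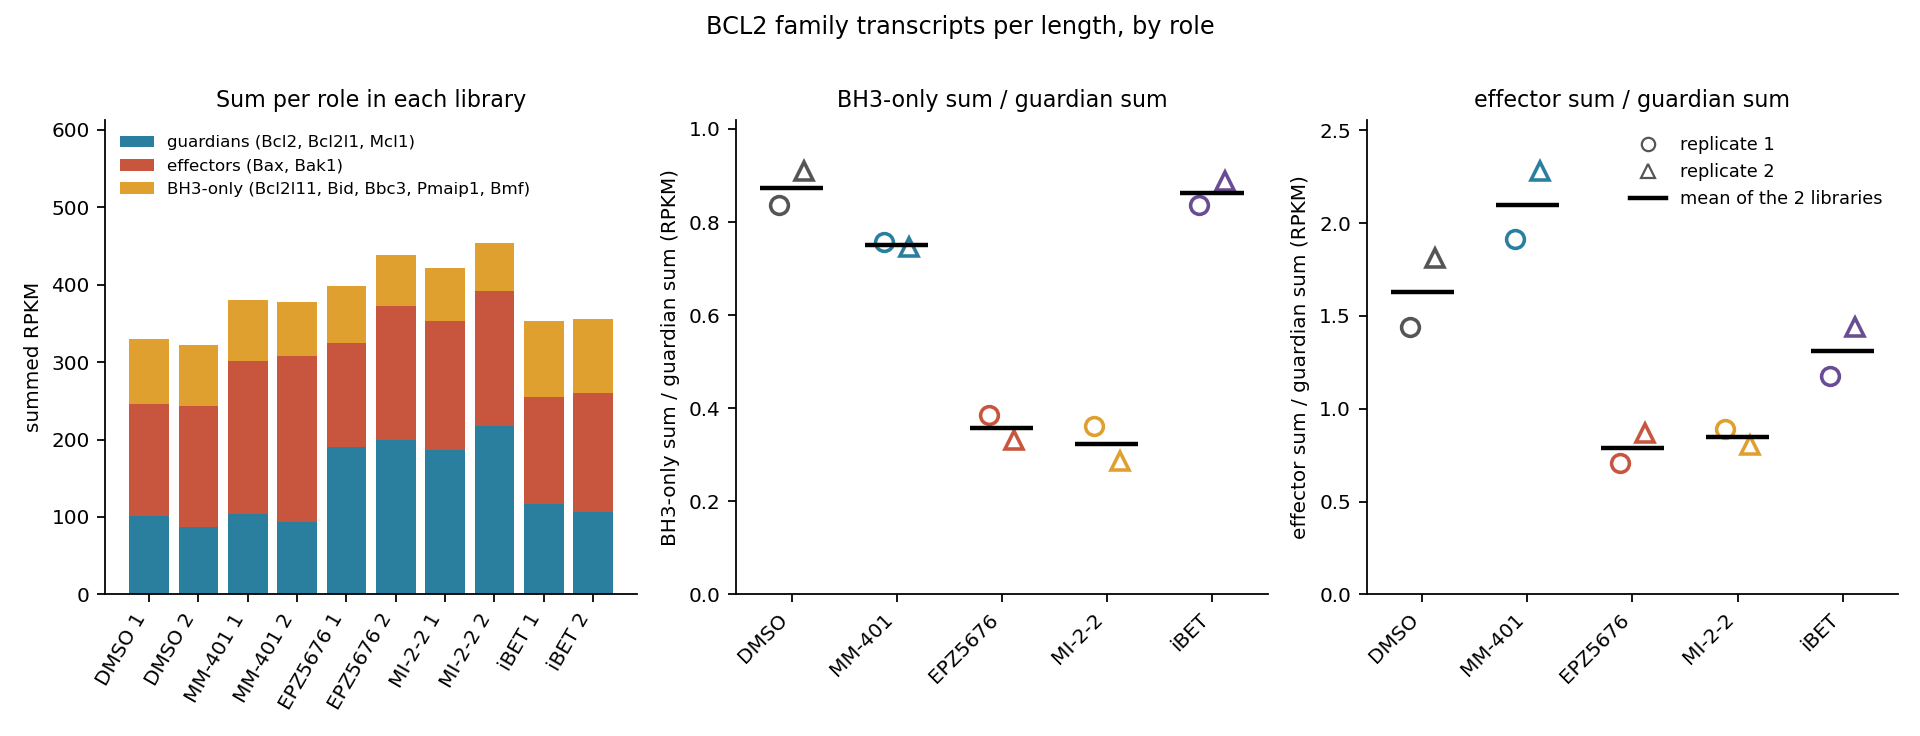
Summed RPKM of guardians, effectors and BH3-only genes in each library (stacked bars from 0), and the ratio of the BH3-only and of the effector sum to the guardian sum in each library (circles and triangles for replicates 1 and 2, bars at the mean). The BH3-only ratio is 0.286 to 0.385 in the EPZ5676 and MI-2-2 libraries and 0.746 to 0.910 in the other 6.

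The inhibitors were also compared with each other, which leaves the DMSO libraries out of the difference but not out of the shared spread. Values in parentheses are log2 fold changes unless named otherwise. EPZ5676 against MI-2-2 called 0 of the 10 family genes in edgeR, with 0.0154% of all tested genes called, 1 family gene at an unadjusted p below 0.05 and 1 called by the DESeq2 test. That gene was Bcl2l11, higher in both EPZ5676 libraries than in both MI-2-2 libraries (log2 fold change 0.73, SE 0.14, 95% interval 0.42 to 1.05, edgeR adjusted p = 0.215). The other 5 genes called with both inhibitors stood at -0.03 for Mcl1 (95% interval -0.35 to 0.29), -0.03 for Bid (-0.27 to 0.21), -0.29 for Bcl2l1 (-0.65 to 0.06), 0.28 for Pmaip1 (-0.13 to 0.69) and -0.39 for Bmf (-1.29 to 0.52). With iBET as the reference, EPZ5676 called 4 of the 10, with 37.6% of all tested genes called. Bid was lower with EPZ5676 than with iBET (log2 fold change -1.05, SE 0.10, edgeR adjusted p = 0.000391), as was Bcl2 at -1.34, while Mcl1 at 0.82 and Bcl2l1 at 0.82 were higher. With replicate number as a block, more of the 10 were called, with 47.8% of all tested genes called. The Bcl2 call was lost without EPZ5676 replicate 1 (-1.21), EPZ5676 replicate 2 (-1.49) or iBET replicate 1 (-1.13), and the Bcl2l1 call without iBET replicate 2 (0.78). Bak1 and Bcl2l11 were not called in this comparison with all 10 libraries. Without DMSO replicate 1 or 2, Bak1 stood at 0.30 and 0.33 and Bcl2l11 at 0.37 and 0.40.

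MI-2-2 against iBET called 6 of the 10, with 38.8% of all tested genes called. Bcl2l1 (log2 fold change 1.11), Mcl1 (0.85) and Bak1 (0.40) were higher with MI-2-2, and Bcl2 (-1.50), Bid (-1.02) and Pmaip1 (-0.72) were lower. The Bcl2 call was lost without iBET replicate 1 (-1.29), and the Pmaip1 call without MI-2-2 replicate 2 (-0.60), iBET replicate 1 (-0.65) or iBET replicate 2 (-0.79). The Bak1 call was lost without either MM-401, either MI-2-2 or either iBET library, at 0.36 to 0.43. Bbc3 was not called with all 10 libraries, and stood at 0.39 and 0.43 without DMSO replicate 1 or 2.

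MM-401 against EPZ5676 called 6 of the 10, with 33.3% of all tested genes called. Bax (0.61) and Bid (0.64) were higher with MM-401, and Bcl2l1 (-0.49), Mcl1 (-1.05), Bcl2l11 (-1.51) and Bmf (-1.68) were lower. The calls of Mcl1, Bcl2l11 and Bid held whichever library was left out. The Bmf call was lost without MM-401 replicate 1 (-1.90), MM-401 replicate 2 (-1.48) or EPZ5676 replicate 1 (-1.36). The Bcl2l1 call held only without a DMSO library, with values of -0.53 to -0.47 over the 10 fits, and was lost with library totals. The Bax call held only without a DMSO library or EPZ5676 replicate 2, with values from 0.37 without EPZ5676 replicate 1 to 0.89 without EPZ5676 replicate 2, and was lost with DESeq2 size factors. Bcl2 was not called, at 0.91, and stood at the same value without DMSO replicate 1, MI-2-2 replicate 1 or MI-2-2 replicate 2.

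MM-401 against MI-2-2 called 6 of the 10, with 35.7% of all tested genes called. Bcl2 (1.07) and Bid (0.61) were higher with MM-401, and Bcl2l1 (-0.78), Mcl1 (-1.09), Bcl2l11 (-0.77) and Bmf (-2.06) were lower. The Bcl2 call held only without a DMSO library or MI-2-2 replicate 2, with values from 0.66 without MI-2-2 replicate 1 to 1.64 without MI-2-2 replicate 2. The Bcl2l1 call was lost without MM-401 replicate 1 (-0.76) or 2 (-0.81), and the Bmf call without MM-401 replicate 2 (-1.87). MM-401 against iBET called 3 of the 10, with 11.4% of all tested genes called. Bak1 (0.49) was higher with MM-401, and Bcl2l11 (-1.13) and Bid (-0.41) were lower. With replicate number as a block, more of the 10 were called, with 19% of all tested genes called. The Bcl2l11 call held whichever library was left out. The Bak1 call held only without a DMSO or EPZ5676 library, with values of 0.46 to 0.53 over the 10 fits. The Bid call held only without a DMSO library, with values of -0.44 to -0.39, and was lost with DESeq2 size factors. Bcl2l1 and Bmf were not called against iBET with all 10 libraries. Without DMSO replicate 1 or 2, Bcl2l1 stood at 0.33 and 0.31 and Bmf at -1.37 and -1.39.

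**Figure D4:**
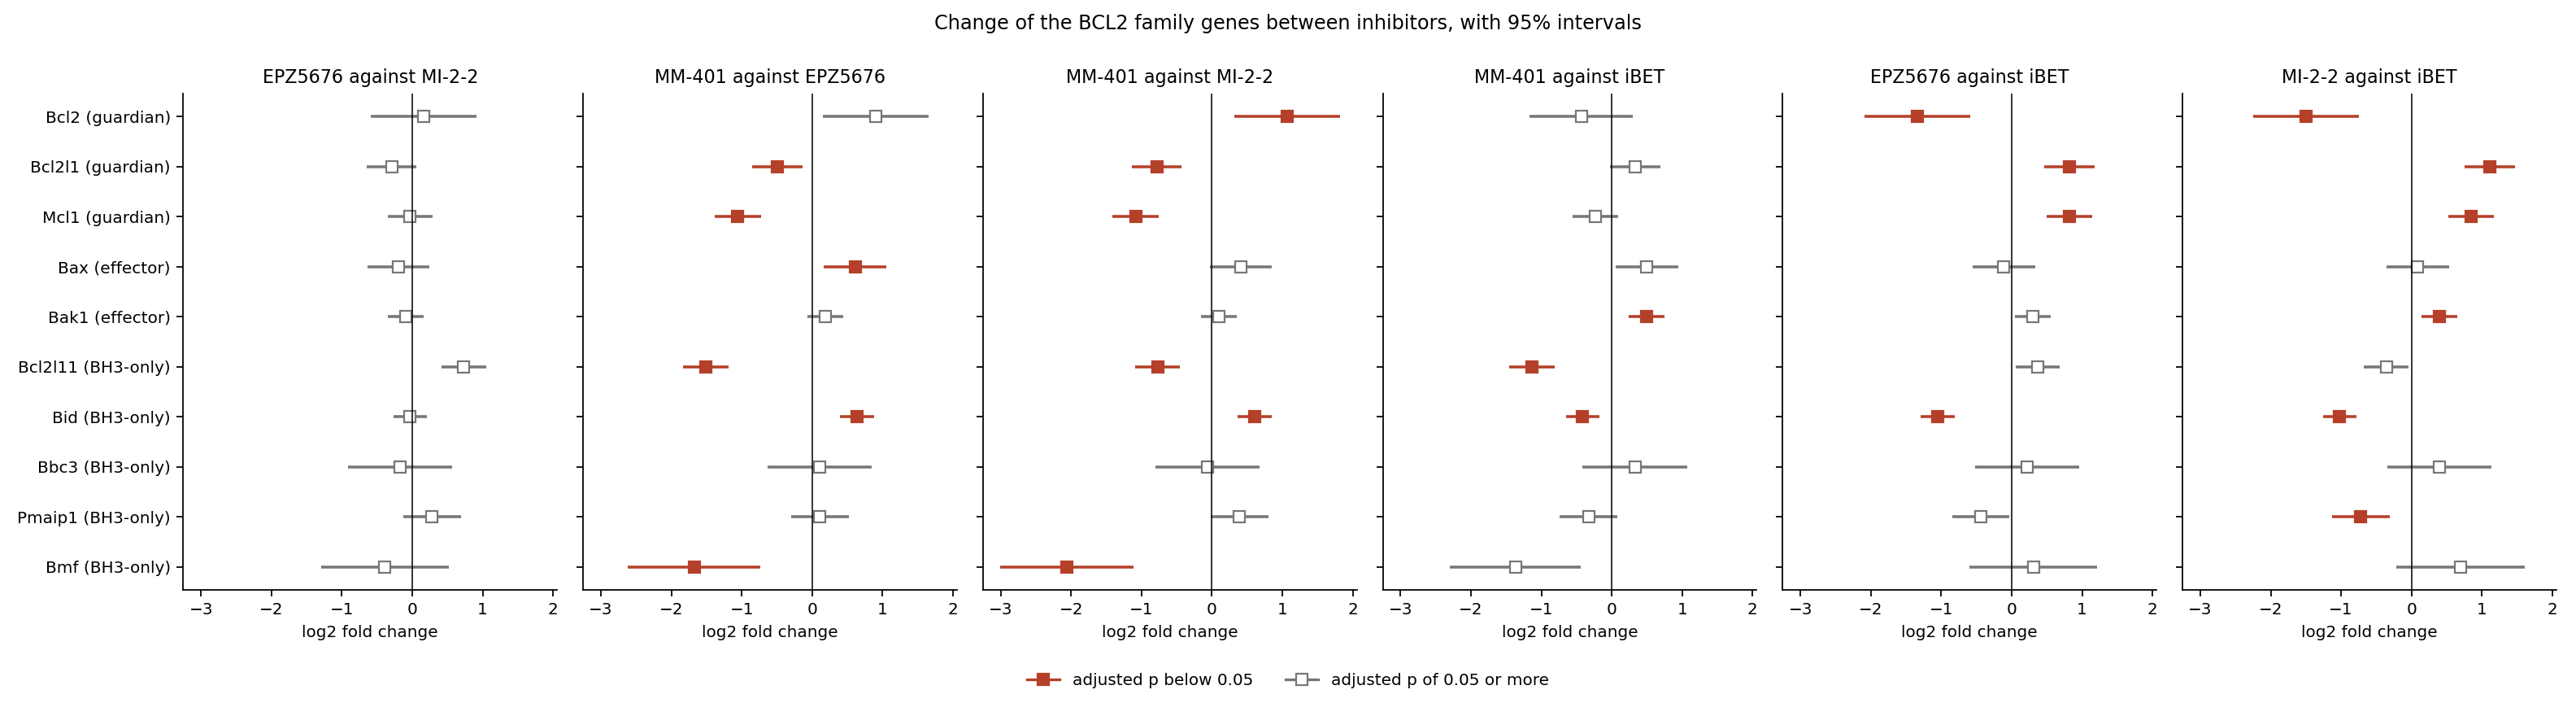
Log2 fold change of each BCL2 family gene between pairs of inhibitors (squares, with 95% intervals as lines), filled where the adjusted p is below 0.05. In EPZ5676 against MI-2-2, Bcl2l11 is at 0.73 with an open square, and Bcl2l11 is at -1.51 in MM-401 against EPZ5676.

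Beyond these 10 genes, 16 further genes of the family were listed, and 12 of them were tested. With EPZ5676, 0 rose and 1 fell, Bcl2l12 (log2 fold change -0.78, SE 0.16, edgeR adjusted p = 0.00817), 8.33% of those tested against 38.1% of all tested genes, with a list median of 0.29 against -0.06. The Bcl2l12 call was lost without EPZ5676 replicate 2 (-0.71). With MI-2-2, 0 rose and 1 fell, Bcl2l12 (-0.51, SE 0.16, edgeR adjusted p = 0.0362), 8.33% against 41.4% of all tested genes, with a list median of 0.36 against -0.05. That call held in 1 of the 10 fits that left out a library, with values of -0.63 to -0.39. When DMSO replicate 1 was left out, 2 rose and 1 fell with EPZ5676 and 2 rose and 0 fell with MI-2-2, where 51.0% and 53.9% of all tested genes were called. Where instead DMSO replicate 2 was left out, the counts were 3 and 2 with EPZ5676 and 3 and 0 with MI-2-2, beside 35.5% and 37.6% of all tested genes. With MM-401, 0 of the 12 were called in edgeR, 1 at an unadjusted p below 0.05 and 0 by the DESeq2 test. The list median was -0.30 against -0.01. Falls were called without DMSO replicate 1, where more of all tested genes were called as well.

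With iBET, 0 of these 12 rose and 4 fell, 33.3% against 13.9% of all tested genes, with a list median of -0.53 against -0.04. Bcl2a1a, 1 of several near-identical copies that encode the guardian A1, read 5.02 and 12.4 CPM with DMSO, 4.35 and 4.29 with MM-401, 8.59 and 10.7 with EPZ5676, 8.59 and 9.79 with MI-2-2 and 0.619 and 0.497 with iBET. Both iBET libraries lay below all others. It fell with iBET (log2 fold change -3.95, SE 0.47, edgeR adjusted p = 0.00398), at -3.17 without DMSO replicate 2, and the call was lost without iBET replicate 2 (-3.80). Its copy Bcl2a1b fell as well (-4.11), at -2.58 without DMSO replicate 2, a call lost without iBET replicate 1 (-3.72) or 2 (-4.70). A further copy, Bcl2a1d, had 18 reads with DMSO and 0 with iBET, at least 6.29-fold lower when 3 reads over the group are taken as the floor, and with it at that bound the list median stayed at -0.53. Reads cannot be assigned with certainty among these copies. The 33.3%, and the falls of this list with iBET here and below, may therefore count 1 signal more than once. The calls of Bcl2a1d and of Bcl2l14 (-2.33, with values of -2.83 to -1.57 over the fits) held in 2 and in 3 of the 10 fits that left out a library. In the fit without DMSO replicate 1, 0 rose and 4 fell (27.9% of all tested genes called), and leaving out DMSO replicate 2, 1 rose and 4 fell (21.6%).

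With replicate number as a block, the counts of this list that rose and fell were 1 and 2 with EPZ5676, 1 and 2 with MI-2-2, 1 and 6 with iBET and 0 and 0 with MM-401, with 47.6%, 50.6%, 23.8% and 0% of all tested genes called. The calls added were Bnip3, which fell with these 3 inhibitors, Bnip3l, which rose with EPZ5676 (0.60) and MI-2-2 (0.31) and fell with iBET (-0.37), and Bad, which rose with iBET (0.63). For the 2 lists that follow, the block gave 7 and 8, 6 and 6, 3 and 1, and 0 and 0 for the death machinery, and 9 and 11, 10 and 8, 4 and 1, and 0 and 0 for the upstream regulators, in the same order.

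The list of mitochondrial death machinery and caspases had 23 genes, all tested. With EPZ5676, 5 rose and 6 fell (list median -0.07), 47.8% of the list against 38.1% of all tested genes. The highest were Apaf1, the scaffold of the apoptosome (log2 fold change 0.69), and Birc3, an inhibitor of apoptosis (0.68), and the lowest were the nuclease gene Endog (-1.61) and Diablo, whose protein counters inhibitors of apoptosis (-0.87). Birc3 was not called without EPZ5676 replicate 1 (0.54), nor Endog without EPZ5676 replicate 2 (-1.29). With MI-2-2, 6 rose and 6 fell (list median -0.01), 52.2% of the list against 41.4% of all tested genes, with the caspase gene Casp6 (1.00) highest and Endog (-1.77) and Diablo (-0.91) lowest. The Casp6 call held only without DMSO replicate 1 (1.71) or DMSO replicate 2 (0.57), and Endog was not called without MI-2-2 replicate 2 (-1.67). With iBET, 2 rose, Diablo the more (0.70), and 1 fell, the nuclease gene Dffb (-0.80), with a list median of 0.03 and 13% of the list called against 13.9% of all tested genes. The calls of Diablo and Dffb were lost without either MM-401 or either iBET library, at 0.64 to 0.76 for Diablo and -0.81 to -0.78 for Dffb.

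Leaving out DMSO replicate 1, more of this list was called with EPZ5676, MI-2-2 and iBET. More of all tested genes were called as well, at the shares given above for the family genes. The log2 fold change of Diablo was then -1.05, -1.09 and 0.52 in that order. For the fit without DMSO replicate 2, fewer of this list and fewer of all tested genes were called with EPZ5676 and MI-2-2. With iBET the list counts did not change, while more of all tested genes were called. Diablo stood at -0.63, -0.67 and 0.91 in the same order. With MM-401, 0 of 23 were called in edgeR, 2 at an unadjusted p below 0.05 and 0 by the DESeq2 test (list median -0.04). A fall was called without DMSO replicate 1, where more of all tested genes were called as well.

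The list of upstream regulators and signals had 34 genes, of which 33 were tested. With EPZ5676, 9 rose and 6 fell (list median 0.02), 45.5% of those tested against 38.1% of all tested genes. Jun, an AP-1 subunit (2.37), and Zfp36, which promotes decay of AU-rich mRNAs (2.12), were highest on the log2 scale, and the transcription factors Myb (-1.59) and Myc (-1.10) lowest, with Myc not called without EPZ5676 replicate 2 (-0.75). With MI-2-2, 9 rose and 6 fell (list median 0.03), 45.5% against 41.4% of all tested genes, with Zfp36 (2.58) and Csf2rb2, a receptor subunit for IL-3 (2.10), highest and Myb (-1.81) and Myc (-1.44) lowest. With iBET, 4 rose and 0 fell (list median 0.07), 12.1% against 13.9% of all tested genes, the highest being Zfp36 (1.14) and Csf2rb, a shared receptor subunit for IL-3 and related cytokines (1.04). Both iBET calls were lost without DMSO replicate 2 (0.90 and 0.84) and without either MM-401 or either iBET library (0.94 to 1.31 for Zfp36 and 0.78 to 1.26 for Csf2rb). Without iBET replicate 2, 0 of the 33 were called with iBET, and without iBET replicate 1, 1 was. Leaving out DMSO replicate 1, more of the list was called with EPZ5676, MI-2-2 and iBET, and with iBET some fell. More of all tested genes were called as well, at the shares given above for the family genes. Zfp36 was then at 2.42, 2.88 and 1.43 in that order. Leaving out DMSO replicate 2, more of the list but fewer of all tested genes were called with EPZ5676 and MI-2-2. With iBET the list counts did not change, while more of all tested genes were called. Zfp36 was at 1.91, 2.38 and 0.90 in the same order. With MM-401, 0 of 33 were called in edgeR, 4 at an unadjusted p below 0.05 and 0 by the DESeq2 test (list median -0.03). A fall was called without DMSO replicate 1, where more of all tested genes were called as well.

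As a description over the 10 libraries, with no p, the 2 tested genes most like each family gene called against DMSO were found by Pearson's r of log2 CPM. For Mcl1 they were Atp2c1 (r = 0.994) and Dhrs7 (r = 0.994). For Bcl2l1 they were Triobp (r = 0.987) and Cd37 (r = 0.987). Bcl2l11 was most like Fam129b (r = 0.953) and Lemd3 (r = 0.953). Bid was most like Gspt2 (r = 0.996) and Dpy19l1 (r = 0.992). Pmaip1 was most like Oxsr1 (r = 0.977) and Usp44 (r = 0.975), and Bmf was most like Dbnl (r = 0.982) and Lmbr1l (r = 0.978). The libraries share 5 groups, so the points behind each r are not independent.

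Markers of mature myeloid cells were high in the libraries with the highest Mcl1 and Bcl2l1. Of 6 neutrophil markers, 5 were in the table, and their summed level was 713 and 214 CPM with DMSO, 972.5 and 1130.5 with MM-401, 18052 and 23378 with EPZ5676, 16929.5 and 16856 with MI-2-2 and 128 and 77.9 with iBET. None of the 5 was at 0 in any library. All 5 rose with EPZ5676 and with MI-2-2, where 38.1% and 41.4% of all tested genes were called, also without either DMSO library, and with iBET 0 rose and 2 fell, Camp (-3.92) and Ngp (-2.61). The Camp call held whichever library was left out, while the Ngp call held only without a DMSO library, at -1.24 without DMSO replicate 1 and -3.30 without DMSO replicate 2. Of 6 macrophage marker symbols, which name 1 gene by 2 symbols (Emr1 and Adgre1), 5 were in the table. Their summed levels were 89.3 and 58.1 CPM with DMSO, 116 and 100.2 with MM-401, 325 and 416 with EPZ5676, 381 and 715 with MI-2-2 and 67.8 and 89.8 with iBET. The 15 markers of myeloid progenitors and MLL-AF9 leukemia, all in the table, summed to 11697 and 15438 CPM with DMSO, 12824 and 13419 with MM-401, 6778 and 8042 with EPZ5676, 6841 and 7003 with MI-2-2 and 8506 and 7708 with iBET. The sums hide genes that moved in opposite directions. With EPZ5676 and with MI-2-2, 5 of the 15 rose and 7 fell, 80% of the list in each comparison, with Itgam rising (2.53 and 2.68) and Elane falling (-1.63 and -2.29). Of these 4 calls, only that of Elane with EPZ5676 was lost on leaving out a library, EPZ5676 replicate 2 (-1.52). With iBET 0 rose and 2 fell, Mpo (-7.40) and Elane (-2.87), 13.3% of the list against 13.9% of all tested genes. Mpo read 386 and 4817 CPM in the DMSO libraries, and its fall with iBET was -4.65 without DMSO replicate 2 and was not called without either iBET library (-7.32 and -7.47). The part of these shifts in the levels of the BCL2 family genes was not tested.

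Each list of markers of other lineages summed to at most 20.4 CPM in any library. The 5 B cell markers summed to at most 1.17 CPM, with Ms4a1, Pax5 and Ebf1 at 0 in every library. The 6 T cell and NK cell markers summed to at most 0.0970 CPM, with Cd3e, Cd8a and Ncr1 at 0 in every library. The 3 eosinophil markers summed to at most 1.39 CPM, and Epx had at most 2 reads. The 7 mast cell and basophil markers summed to 7.37 to 20.4 CPM, with Fcer1a, Tpsb2, Cma1 and Prss34 at 0 throughout. Mcpt8 of this list fell with EPZ5676 (-1.35, called in all 10 fits that left out a library) and with MI-2-2 (-0.87, not called without either MI-2-2 library). The 6 erythroid and megakaryocyte markers summed to 0.995 to 6.94 CPM, with Hbb-b1 and Hba-a1 at 0 throughout. Among them Pf4 rose with EPZ5676 (2.83, called in all 10 fits that left out a library) and with MI-2-2 (2.13, not called without DMSO replicate 2 or MI-2-2 replicate 1) and fell with iBET (-2.84, called in 2 of the 10 fits). The 4 stroma markers summed to at most 19.0 CPM, with Col1a2 at 0 throughout, and were highest in EPZ5676 replicate 2. Their gene Col1a1 rose with EPZ5676 (5.46) and with MI-2-2 (4.65), and both calls held whichever library was left out, at 4.44 without EPZ5676 replicate 2 and 3.40 without MI-2-2 replicate 2.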

How the data were processed

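The deposited gene counts, read from the authors' count matrix of 24015 genes and 10 libraries, were used as raw read counts. The submitters' processing notes name mm9, TopHat2, Subread and DESeq, with no versions. Counts were tested in R 4.3.3 with edgeR 4.0.16 (quasi-likelihood test, filterByExpr, TMM, 1 fit of 10 libraries in 5 groups, no covariate, limma 3.58.1 loaded) and Benjamini-Hochberg adjustment within each of 10 comparisons at a threshold of 0.05. Of 17450 genes with a read, 12971 were tested. Depth was 20394762 to 29473127 reads per library. Intervals at 95% come from the fitted spread, and the floor of 3 reads covers counting error only. Alternatives were library totals, DESeq2 size factors, the DESeq2 1.42.0 test, no filter, a mean of at least 5 CPM, only the 2 groups compared, a replicate block, each library left out, and, chosen after seeing the data, only the 8 inhibitor libraries. A group left with 1 library was assumed to vary like the others. Lengths came from GENCODE M21 and promoters from RefSeq on GRCm38.p6, handled in Python 3.11.15 with pandas 2.3.3 and matplotlib 3.10.9. Replicate numbers were not treated as pairs, since the labels do not say what they mark, although replicate differences were correlated between groups. The procedure was tested on simulated data. Every family gene is named. Of each list (other BCL2 family, death machinery, upstream regulators), at most the 2 highest and 2 lowest called genes are named for a comparison with DMSO, and some listed genes are not reported here. Likeness to a family gene was Pearson's r of log2 CPM (prior count 2). Cell type markers were read as levels. The members and lists were chosen with earlier results of these data known.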

Additional observations from a re-analysis of the deposited data

How the results depend on the processing

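Of 1346 refits of 77 log2 fold changes of family genes, 1197 kept their direction and their side of the threshold, 81 lost a call, 46 gained a call and 22 changed sign, all 22 in values not called. With 2 libraries a group, the spread was shared by all 5 groups, and the 2 differing DMSO libraries entered every comparison through it. The causes of the shifts below were not tested.

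The DESeq2 test called 297 genes for MM-401 against DMSO, 2856 for iBET against DMSO (4 family genes), 155 for EPZ5676 against MI-2-2 (1 family gene) and 2313 for MM-401 against iBET. In edgeR fits of only the 2 groups compared, 1174 genes and 2 family genes were called for EPZ5676 against DMSO. These fits called 1147 and 2 for MI-2-2 against DMSO and 4223 and 6 for MM-401 against iBET. For iBET against DMSO they called 0 and 0, with 2541 genes at an unadjusted p below 0.05. The 2856 genes of the DESeq2 test there come from a separate setting, not from a fit of only 2 groups. In a fit of only the 8 inhibitor libraries, chosen after seeing the data, 126 genes were called for EPZ5676 against MI-2-2 and 3232 genes and 6 family genes for MM-401 against iBET. For EPZ5676 against MI-2-2, edgeR with library totals gave 0 genes (923 at an unadjusted p below 0.05), and edgeR with no filter gave 7. The 155 genes of the DESeq2 test there come from a separate setting, not from library totals. With replicate number as a block, which the labels do not show to be a pairing, 3088 genes were called for iBET against DMSO, 4 for EPZ5676 against MI-2-2, 2470 genes and 5 family genes for MM-401 against iBET, and 6200 genes and 7 family genes for EPZ5676 against iBET (4879 genes and 4 family genes without the block).

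With library totals, the log2 fold change of Bax with EPZ5676 became -0.16, of Bak1 with EPZ5676 -0.13 and of Bak1 with MI-2-2 -0.0119. The log2 fold change of Bcl2l11 with MM-401 became -0.0173 with library totals, -0.0163 with a mean of at least 5 CPM and -0.0149 with only the 2 groups compared. On that scale the share of called genes that rose was 34.7% in place of 49.2% with EPZ5676 against DMSO, 37.1% in place of 48.9% with MI-2-2 against DMSO, 38.5% in place of 50.9% for EPZ5676 against iBET, 39.2% in place of 50.7% for MI-2-2 against iBET, 64.5% in place of 49.7% for MM-401 against EPZ5676 and 62.2% in place of 49.4% for MM-401 against MI-2-2.

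With each library left out in turn, genes called ranged from 0 to 1368 for MM-401, 2639 to 6808 for EPZ5676, 2772 to 7197 for MI-2-2 and 150 to 3720 for iBET against DMSO. They ranged from 0 to 111 for EPZ5676 against MI-2-2, 1556 to 6274 for MM-401 against EPZ5676, 1729 to 6535 for MM-401 against MI-2-2, 183 to 3207 for MM-401 against iBET, 2248 to 6755 for EPZ5676 against iBET and 2096 to 6782 for MI-2-2 against iBET. Family genes called ranged from 0 to 2 for MM-401, 5 to 7 for EPZ5676, 5 to 7 for MI-2-2 and 1 to 4 for iBET against DMSO. They ranged from 3 to 7 for MM-401 against EPZ5676, 3 to 6 for MM-401 against MI-2-2, 1 to 5 for MM-401 against iBET, 3 to 6 for EPZ5676 against iBET and 3 to 7 for MI-2-2 against iBET, and were 0 throughout for EPZ5676 against MI-2-2. Values that changed sign ranged from -0.0462 to 1.09 for Bbc3, -0.27 to 0.25 for Bax and -0.0631 to 0.149 for Bak1 with EPZ5676, from -0.29 to 0.87 for Bbc3, -0.28 to 0.20 for Bcl2l1 and -0.0127 to 0.273 for Bax with iBET, from -0.0665 to 0.148 for Mcl1, -0.0710 to 0.0854 for Bcl2l11 and -0.668 to 0.490 for Bmf with MM-401, and from -0.139 to 0.0842 for Mcl1 and -0.0875 to 0.0213 for Bid in EPZ5676 against MI-2-2.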

Other observations

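Bnip3, a gene of the other BCL2 family list that encodes a mitophagy receptor, was chosen here after its values were seen. It read 137 and 70.3 CPM with DMSO, 66.1 and 15.1 with MM-401, 87.2 and 16.8 with EPZ5676, 66.2 and 10.7 with MI-2-2 and 39.9 and 13.3 with iBET, with replicate 1 given before replicate 2. In each of the 5 groups the library numbered 1 read higher than the library numbered 2, as it did for the family genes Pmaip1 and Bmf, while Bax read higher in the library numbered 2. What the replicate numbers mark is not stated in the labels. In the fit of all 10 libraries without a block, Bnip3 was not called in any comparison with DMSO. With replicate number as a block it was lower and called with EPZ5676 (log2 fold change -1.40), MI-2-2 (-1.90) and iBET (-2.16), and not called with MM-401 (-1.70, edgeR adjusted p = 0.130).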
